A study of Mus musculus with 18 samples.

Results

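Oxidative phosphorylation is carried out in the inner mitochondrial membrane by respiratory chain complexes I to IV and the ATP synthase, complex V, most of whose subunits are encoded in the nucleus. The genes described here are the 85 of 22787 gene rows whose symbols mark them as subunits: 37 named for complex I (Nduf genes), 4 for complex II (Sdha to Sdhd), 9 for complex III (Uqcr genes and Cyc1), 18 for complex IV (Cox4 to Cox8 genes) and 17 for complex V (Atp5 genes). They were chosen by symbol, and assembly factors such as the Ndufaf genes were left out. RNA of 18 mouse samples had been profiled by SmartSeq2 low-input sequencing. Sorted granulocyte-monocyte progenitors, the bone marrow precursors of neutrophils and monocytes, gave 12 libraries: Raptor KO and its Raptor fl/fl control, and Tsc2 KO and its Tsc2 fl/fl control, with 3 libraries each and 10000 cells in a sort. The sort kept cells with c-kit and FcγRII/III and low CD34 and Ly6C, and left out those with Sca-1, CD127 or CD135. DR-ER-Hoxb8 cells, an immortalized myeloid progenitor line released from estradiol for 3 days, gave 6 libraries, with 2 each for rapamycin at 100 nM, SL0101 at 10 nM and the solvent DMSO. All Hoxb8 groups share the Hoxb8 transgene, the removal of estradiol and a medium with SCF.

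Complex I takes electrons from NADH and complex II takes them from succinate. Complex III passes them on through cytochrome c to complex IV, which reduces oxygen, and the proton gradient built on the way drives the ATP synthase. Raptor defines the kinase complex mTORC1, and Tsc2 is part of the complex that restrains it. mTORC1 is known to promote the translation of many mRNAs for mitochondrial proteins and the activity of transcription factors for them. The comparisons therefore ask how transcripts of the respiratory chain stand when mTORC1 is meant to be lost (Raptor KO), released (Tsc2 KO) or inhibited (rapamycin). SL0101 is an inhibitor of RSK kinases. mTORC1 and RSK activity, protein and respiration were not measured here.

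The deposited signal of a gene is its number of fragments over a library-specific size factor. The 12 progenitor libraries held 2.48 to 3.52 M fragments each, and the 6 Hoxb8 libraries 2.31 to 3.3 M. Tsc2 had 103, 99 and 83 in Tsc2 KO libraries, against 269, 235 and 241 in Tsc2 fl/fl libraries. Rptor had 61.5, 58.7 and 69.5 in Raptor KO libraries, against 88, 78.6 and 86.8 in Raptor fl/fl libraries. The log2 fold change of Rptor, -0.41, missed the threshold (limma adjusted p = 0.377). Which exons were deleted, the Cre driver, and the age and strain of the animals are not given in the sources used here, and groups follow the sample titles, because the genotype field reads Raptor in the Tsc2 samples too. Replicate 2 of Tsc2 KO and replicate 2 of Tsc2 fl/fl had summed Y-linked transcript levels of 318 and 385, and the other progenitor libraries at most 0.778. Nothing in the labels says that replicates were separate animals or cultures, so p-values measure the spread between these libraries, which may be technical. In bulk RNA, fewer cells of a type and less RNA per cell cannot be told apart. A gene passed the test when its Benjamini-Hochberg adjusted p from limma, over all genes tested in that comparison, was under 0.05. Fold changes were taken on log2 of the signal plus 1, a scale that understates the change of genes near 0.

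The label of the gene set held: 76 of the 85 genes had a value of 1 or more in every library, and every complex was represented among them. The other genes were mostly isoforms known from other tissues. Cox7b2, Cox8b and Cox8c, isoforms of cytochrome oxidase subunits, and Ndufa4l2, a paralog of Ndufa4, were at 0 in all 18 libraries. Cox4i2, Cox6a2 and Cox7a1 stayed between 0 and 10.6. Ndufs5 was the 1 gene with fragments shared with other genes in 3 or more libraries, and its values are uncertain. Ndufa4 carries a complex I name but has been placed in complex IV by later work. Atp5sl (current symbol Dmac2) is now known as an assembly factor of complex I. The 13 subunits encoded by mitochondrial DNA are not analysed here.

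Per kilobase of transcript, complex IV and complex V genes stood highest. Among genes at 1 or more in every library, the median of complex IV genes was 786 units per kb in Raptor KO, 1089 in Raptor fl/fl, 1069 in Tsc2 KO and 831 in Tsc2 fl/fl. For complex I, the median level per kb was 286 in Raptor KO, 429 in Raptor fl/fl, 405 in Tsc2 KO and 347 in Tsc2 fl/fl. Atp5b, which encodes the catalytic beta subunit of the ATP synthase head, was the highest complex V gene per kb in all 4 progenitor groups, and Cox4i1 the highest complex IV gene in all 7 groups. As a share of all deposited signal, the 85 genes made up 1.88, 1.58 and 1.69% in Raptor KO libraries, against 2.4, 2.04 and 2.09% in Raptor fl/fl libraries. They made up 2.33, 2.32 and 2.32% in Tsc2 KO libraries, against 1.92, 1.96 and 2.08% in Tsc2 fl/fl libraries. All 3 Raptor KO libraries lay below all 3 of their controls and all 3 Tsc2 KO libraries above theirs. In Hoxb8 cells the share was lower than in any progenitor library. It was 1.16 and 1.36% with rapamycin, 1.37 and 1.33% with SL0101 and 1.26 and 1.31% with DMSO. Rapamycin overlapped both other groups, while both SL0101 libraries lay above both DMSO libraries.

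**Figure D1:**
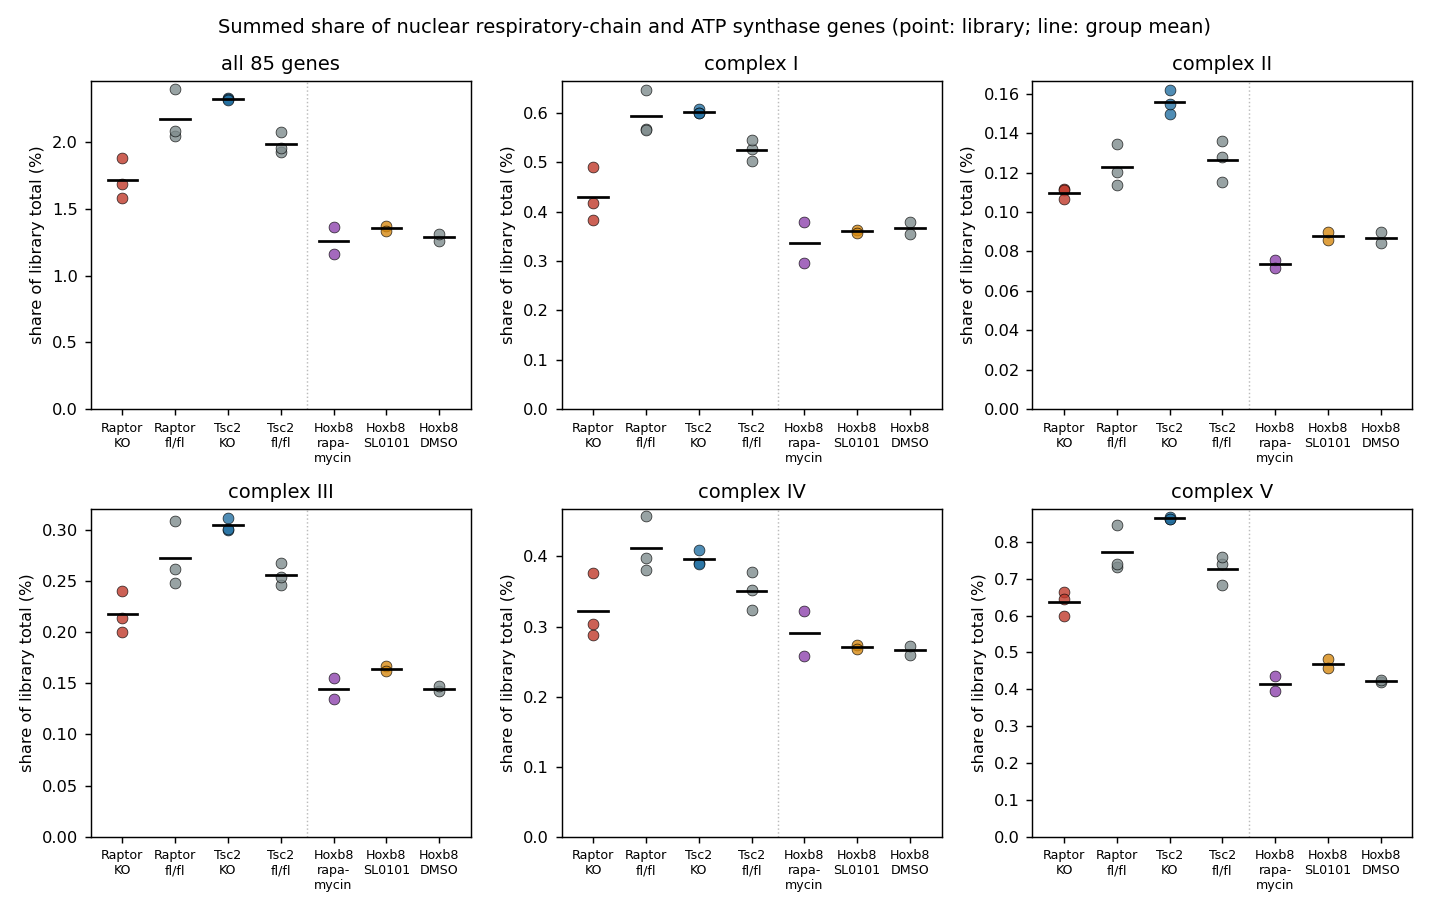
Share of each library's total signal (%, vertical axes from 0) taken by all 85 genes and by each complex, with 1 point per library and a line at the group mean. Raptor KO libraries lie below Raptor fl/fl libraries in all 6 panels, and Tsc2 KO libraries lie above Tsc2 fl/fl libraries in all 6.

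In Raptor KO progenitors 19 of the 80 subunit genes tested fell and none rose, where 2.42% of all genes tested passed as lower and 1.53% as higher. The median log2 fold change of the 80 was -0.41, beside 0.03 over all 13237 genes tested, and 74 of the 80 values were negative. For 36 of the 80 genes all 3 Raptor KO values lay below all 3 Raptor fl/fl values, where 13.1% of all genes tested were arranged that way. By complex, 11 of 36 genes fell in complex I (median log2 fold change -0.42), none of 4 in complex II (-0.16), 2 of 9 in complex III (-0.35), 3 of 14 in complex IV (-0.47) and 3 of 17 in complex V (-0.34).

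Ndufb7, an accessory subunit in the membrane arm of complex I, had 263, 189 and 182 in Raptor KO libraries and 431, 385 and 379.7 in Raptor fl/fl libraries. The 3 knockout libraries lay below the 3 controls, and Ndufb7 fell by 0.93 on the log2 scale (SE 0.16, limma adjusted p = 0.00243). It passed in all 16 alternative settings tried, the only member of the 19 to do so. Uqcrq, a small subunit of complex III, had 289, 190.3 and 207 in Raptor KO libraries and 561, 367 and 390.3 in Raptor fl/fl libraries. The groups did not overlap, and Uqcrq fell by 0.94 (SE 0.18, limma adjusted p = 0.00671). Ndufa11, another membrane arm accessory subunit, had 177, 141 and 124 in Raptor KO, against 312, 280.3 and 243 in Raptor fl/fl, again without overlap, and fell by 0.92 (limma adjusted p = 0.00612). Ndufv2, which carries an iron-sulfur cluster in the NADH-binding module, had 626, 443 and 549 in Raptor KO, against 857, 713 and 832 in Raptor fl/fl, also without overlap. It was the 1 core subunit among the 11 complex I genes that fell (log2 fold change -0.58, limma adjusted p = 0.0193). Of core subunits 1 of 7 passed and of accessory subunits 10 of 29, a split made after the values were seen. It counts Ndufa4 as accessory by its name. With transcript length corrected for, as given below, Ndufv2 and the accessory Ndufb7, Ndufa11 and Ndufa4 were the complex I genes that still passed.

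The complex IV genes that fell were Cox5a, Cox7b and Cox7a2. Cox5a had 601, 437 and 491 in Raptor KO, against 890.3, 721 and 717 in Raptor fl/fl (log2 fold change -0.61, limma adjusted p = 0.0188), with no overlap. Cox7a2 had 625, 383 and 442 in Raptor KO and 823, 619 and 712 in Raptor fl/fl. There the highest knockout library was above the lowest control, and the log2 fold change was -0.59 (limma adjusted p = 0.0407). In the ATP synthase, the 3 genes that fell belong to the membrane part and the stalk that links it to the head. Other genes of these parts, Atp5f1, Atp5g1, Atp5g2, Atp5g3, Atp5j, Atp5j2 and Atp5l, did not pass. Atp5k, the small subunit e, had 63.7, 39.4 and 49.8 in Raptor KO, against 136, 91.1 and 98.2 in Raptor fl/fl, without overlap, and fell by 1.08 (limma adjusted p = 0.0234). Atp5h, subunit d of the stalk, and Atp5o, the subunit that joins stalk and head, had log2 fold changes of -0.63 and -0.48 (limma adjusted p = 0.0185 and 0.0412). With transcript length corrected for, as given below, none of Atp5k, Atp5h and Atp5o passed (limma adjusted p = 0.0839, 0.0608 and 0.194). The 5 head genes did not pass, of which small Atp5e had the lowest log2 fold change (-0.81, limma adjusted p = 0.0614). Catalytic Atp5b had 4047, 3891 and 3997 in Raptor KO and 4851, 4205 and 4318 in Raptor fl/fl (log2 fold change -0.16, limma adjusted p = 0.373), without overlap. The 4 complex II genes did not pass either, and flavoprotein Sdha had 1079.6, 1149 and 1078 in Raptor KO and 1198, 1042 and 1062 in Raptor fl/fl, with overlapping groups.

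Transcript length moved with the Raptor result. Among genes other than the 85 with a mean value of 50 or more, the median log2 fold change was -0.25 for transcripts under 1000 bases, -0.11 for 1000 to 2000 bases, 0.00 for 2000 to 4000 bases and 0.12 for 4000 bases or more. Of the subunit genes with such a mean, the 46 with transcripts under 1000 bases had a median of -0.53 and the 28 longer ones a median of -0.21. The 19 genes that fell had a median transcript length of 645 bases, and the 61 that did not pass had one of 875 bases. With the trend over length taken out gene by gene in each library, a setting added after the data were seen, 5 of the 19 still passed as lower (Ndufb7, Ndufa11, Ndufa4, Ndufv2 and Uqcrq; 2% of all genes tested passed as lower there), the median over the 80 genes was -0.16, and 64 values stayed negative. Cox7a2l then passed as higher, as 2.02% of all genes tested did. The corrected log2 fold change of Ndufb7 was -0.61 and that of Uqcrq -0.50. The length trend differs between libraries: other short transcripts deviated from their progenitor mean by a median of 0.14, -0.22 and -0.12 in the 3 Raptor KO libraries, against 0.32, 0.09 and 0.16 in the 3 Raptor fl/fl libraries. The subunit genes deviated by 0.01, -0.44 and -0.32 in Raptor KO, against 0.39, 0.06 and 0.13 in Raptor fl/fl. Raptor KO replicate 1 thus stood nearest to the controls in both measures.

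**Figure D2:**
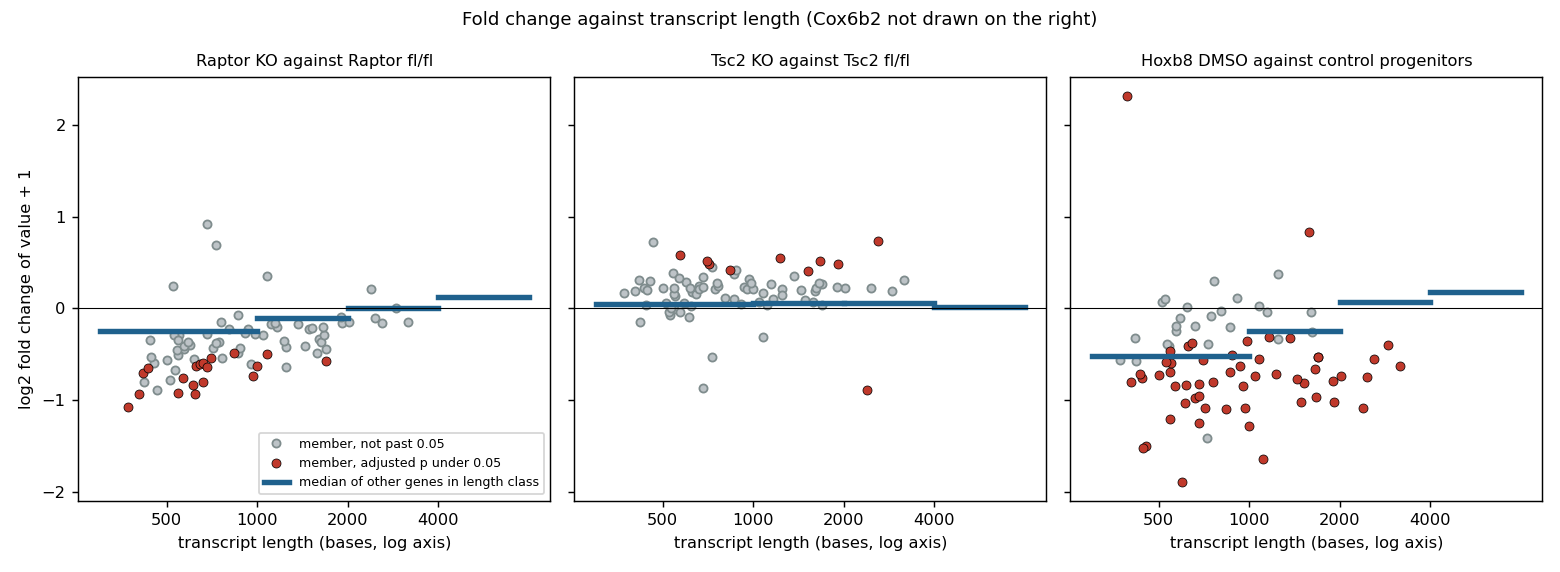
Log2 fold change of each subunit gene (points) against the length of its transcript (bases, log axis) in 3 comparisons, with blue lines at the median of other genes in 4 length classes, from -0.25 to 0.12 in Raptor KO. The blue lines climb with length on the left and on the right and lie flat, between 0.02 and 0.06, in Tsc2 KO.

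Without Raptor KO replicate 1, 2 or 3 the count of 19 became 32, 2 or 1, and without Raptor fl/fl replicate 1, 2 or 3 it became 3, 9 or 5. Of all genes tested 3.94% passed in either direction in the main fit. Their share was 3.07, 1.12 or 1.12% without a knockout library and 1.48, 1.74 or 1.93% without a control library. Without the expression trend 1 subunit gene and 1.42% of all genes passed. Markers of other blood cells moved in the same libraries. In Raptor KO, 8 of 10 B lymphoid markers fell, to summed levels of 140.5 to 187, against 933 to 1300.1 in Raptor fl/fl, and 4 of 12 erythroid markers fell, to sums of 1825 to 2383, against 3836 to 4363. None of the markers of these lists was at 0 throughout Raptor KO except Cd5l, a macrophage gene. Of 8 late neutrophil markers 3 fell (sums of 378 to 476 in Raptor KO, against 663 to 1891 in Raptor fl/fl), and of 12 macrophage markers tested 2 rose and 1 fell (sums of 588 to 1307 in Raptor KO, against 336 to 371 in Raptor fl/fl), and 2 of 5 megakaryocyte markers fell (360.5 to 411 in Raptor KO, against 957 to 1146 in Raptor fl/fl). Of 9 progenitor markers only Kit passed, as higher, and their sums were 63884 to 66424 in Raptor KO, against 70460.1 to 81040.4 in Raptor fl/fl. The part of these cells in the fall of the subunit genes was not tested.

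In Tsc2 KO progenitors 9 of the 80 subunit genes tested rose and 1 fell, where 5.26% of all genes tested passed as higher and 7.12% as lower. The median log2 fold change was 0.21, beside -0.02 over all genes tested, and 70 values were positive. For 32 of the 80 genes all 3 Tsc2 KO values lay above all 3 Tsc2 fl/fl values, where 14.6% of all genes tested were arranged that way. Those that rose were Ndufs1, Ndufv1 and Ndufb9 of complex I, Sdhd of complex II, Cyc1 of complex III, Cox6a1 of complex IV, and Atp5b, Atp5g3 and Atp5o of complex V.

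**Figure D3:**
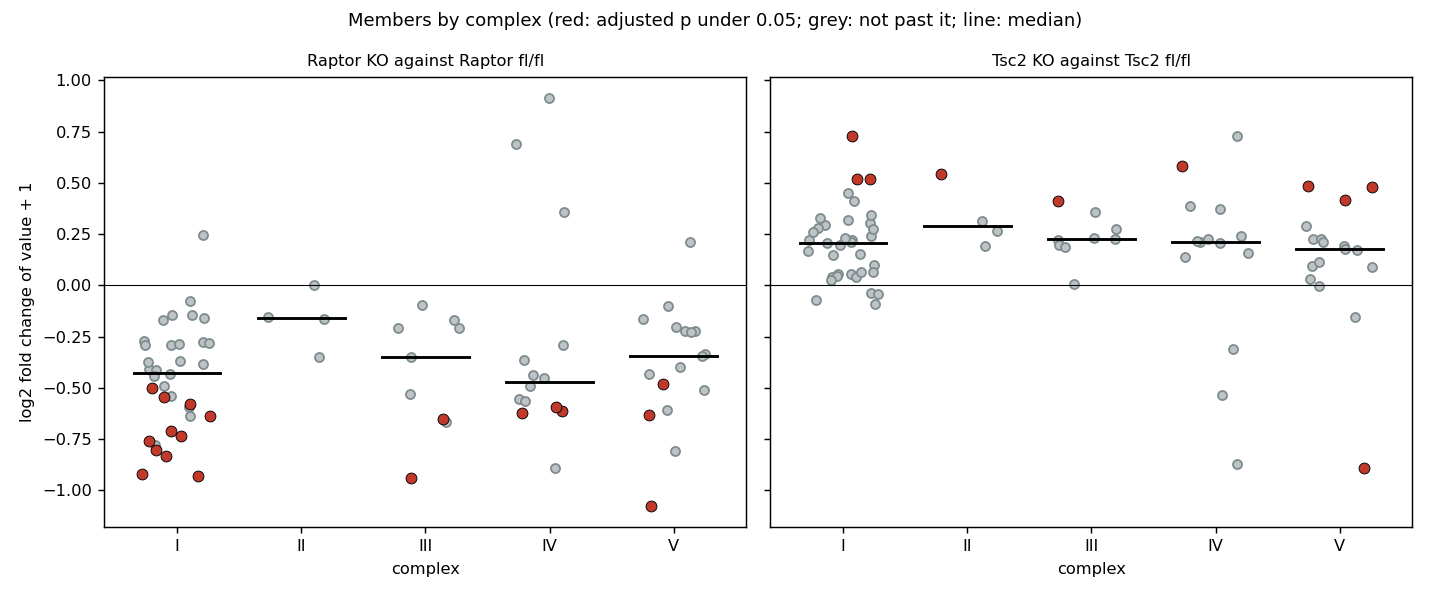
Log2 fold change of the value plus 1 for each subunit gene by complex in Raptor KO (left) and Tsc2 KO (right), with genes past the test in red and a line at the median of each complex. All 19 red points lie below 0 on the left, and 9 of 10 lie above 0 on the right.

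Atp5b had 5499.6, 5864 and 5934 in Tsc2 KO libraries and 3704, 4336 and 4327 in Tsc2 fl/fl libraries. Each knockout library was above each control, and Atp5b rose by 0.49 on the log2 scale (SE 0.09, limma adjusted p = 0.00294). It passed in 16 of 17 alternative settings, all except the fit without the expression trend (adjusted p up to 0.0657). Ndufs1, the largest core subunit of complex I, which carries iron-sulfur clusters, had 532, 605 and 660 in Tsc2 KO and 316, 464 and 316 in Tsc2 fl/fl. The groups did not overlap, and Ndufs1 rose by 0.73 (SE 0.17, limma adjusted p = 0.00862). Ndufv1, which binds NADH and the flavin, had 727, 836 and 804 in Tsc2 KO, against 529, 557 and 561 in Tsc2 fl/fl, again without overlap (log2 fold change 0.52, limma adjusted p = 0.00971).

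Sdhd, a membrane anchor of succinate dehydrogenase, had 1094, 1195 and 1223 in Tsc2 KO libraries, all above the 713, 876 and 826 in Tsc2 fl/fl libraries (log2 fold change 0.54, limma adjusted p = 0.01). The other 3 complex II genes had log2 fold changes of 0.19 (Sdha), 0.26 (Sdhb) and 0.31 (Sdhc) and did not pass. Cyc1, the cytochrome c1 of complex III, had 1133, 1238 and 1124 in Tsc2 KO, against 788, 877 and 968 in Tsc2 fl/fl, without overlap (log2 fold change 0.41, limma adjusted p = 0.0208). Cox6a1, a regulatory subunit of cytochrome oxidase, rose by 0.58, Atp5g3, 1 of 3 genes for the c ring of the ATP synthase, by 0.48, Ndufb9 by 0.52 and Atp5o by 0.42. The 1 gene that fell was Atp5sl, with 54.4, 42 and 50.4 in Tsc2 KO, against 108, 71.9 and 97.8 in Tsc2 fl/fl, all 3 below the controls (log2 fold change -0.89, limma adjusted p = 0.0141).

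In Tsc2 KO the length classes of other genes were level, with medians between 0.02 and 0.06, and short and long subunit genes had medians of 0.22 and 0.21. After the length correction the same 9 genes passed as higher, where 5.3% of all genes tested did, and the median was 0.13. The 10 calls became 3, 2, 3 and 6 without Tsc2 KO replicate 2, Tsc2 KO replicate 3, Tsc2 fl/fl replicate 1 and Tsc2 fl/fl replicate 3, 4 without replicate 2 of both Tsc2 groups, 4 with only the Tsc2 groups in the fit, and 1 without the expression trend. In the same order, 5.04, 4.57, 5.36, 6.54, 9.78, 3.89 and 6.25% of all genes tested passed in either direction, beside 12.4% in the main fit. Cell markers moved here too. Of 12 erythroid markers 5 rose, with sums of 12412 to 24824 in Tsc2 KO, against 2987 to 10543 in Tsc2 fl/fl. Of 12 macrophage markers tested 6 rose (764 to 997 in Tsc2 KO, against 90.5 to 293 in Tsc2 fl/fl). Of 10 B lymphoid markers 8 fell (22.2 to 80.2 in Tsc2 KO, with Pax5 at 0, against 405 to 678 in Tsc2 fl/fl), and of 5 megakaryocyte markers 3 fell (134 to 163 in Tsc2 KO, against 334 to 647 in Tsc2 fl/fl). Progenitor marker sums were 8734 to 40589.5 in Tsc2 KO, against 36771 to 82473 in Tsc2 fl/fl, and Cd34 and Prtn3 fell. Flt3, the gene of the sorted-against CD135, rose in Raptor KO and fell in Tsc2 KO, and the summed level of 6 genes of markers sorted against was 184 to 249 in Raptor KO, 108 to 147 in Raptor fl/fl, 37.8 to 66.3 in Tsc2 KO and 110 to 146 in Tsc2 fl/fl. The part of these markers in the rise of the subunit genes was not tested.

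The difference between both knockout effects was tested as an interaction. The Raptor effect was below the Tsc2 effect for 37 of 80 genes and above it for 2, where 6.44% and 5.99% of all genes tested passed in these directions. The median difference was -0.65 log2 units, beside 0.08 over all genes. Atp5o and Ndufb9 were the 2 genes that passed on their own in both lines, lower in Raptor KO and higher in Tsc2 KO. Atp5o had 664, 529 and 509 in Raptor KO, against 882, 757 and 731 in Raptor fl/fl, and 783, 894 and 914 in Tsc2 KO, against 653, 602 and 687 in Tsc2 fl/fl. Ndufb9 had 499, 354 and 341 in Raptor KO, against 600.3, 549.6 and 566 in Raptor fl/fl, and 603, 720.1 and 749.6 in Tsc2 KO, against 472, 468 and 498 in Tsc2 fl/fl. None of these 4 pairs of groups overlapped. After the length correction 18 of the 37 remained below, where 5.75% of all genes tested passed in that direction. The 39 calls became 17, 20, 18 and 25 without Raptor KO replicate 2, Raptor KO replicate 3, Raptor fl/fl replicate 1 and Tsc2 KO replicate 2, 22 without replicate 2 of both Tsc2 groups, and 2 without the expression trend. In the same order, 7.26, 7.66, 8.28, 6.82, 10.8 and 4.53% of all genes tested passed in either direction, beside 12.4% in the main fit.

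Promoter sequences are shown for 5 genes picked from those that passed in a knockout and hold a match to the NRF1 motif, a known activator of respiratory chain genes. Atp5g3, Atp5k, Ndufb4 and Ndufs6 also passed in a knockout with such a match and are not shown. Cox7a2l, whose fold changes had the opposite sign, is shown beside them. RefSeq promoter windows (GRCm38.p6, from 250 bases before to 50 after each start) were matched for 69 of the 85 genes. The NRF1 motif was searched on both strands as GCGCA, any base, then GCGC, and it occurred in 17 of the 69 genes (24.6%), against 5.19% of all 27025 genes in the promoter table. It occurred in 6 of the 17 genes with a window that fell in Raptor KO and in 4 of the 6 with a window that rose in Tsc2 KO. The ETS core CCGGAAG was found in 16 of the 69 genes (23.2%, against 9.93% of all), the YY1 core AAGATGGC in 11 (15.9%, against 3.19%) and the ERR half-site AAGGTCA in 8 (11.6%, against 5.38%). A match describes letters and does not show binding. The stretches run from 150 bases before the start to 25 after it, 5′ to 3′ on the gene's strand, with matches to any of the 4 motifs in capitals. They lie at chr9:50603825-50603999 (Sdhd), chr5:115348934-115349108 (Cox6a1), chr16:91931606-91931780 (Atp5o), chr11:115419895-115420069 (Atp5h), chr17:56717612-56717786 (Ndufa11) and chr17:83514309-83514483 (Cox7a2l).
Sdhd: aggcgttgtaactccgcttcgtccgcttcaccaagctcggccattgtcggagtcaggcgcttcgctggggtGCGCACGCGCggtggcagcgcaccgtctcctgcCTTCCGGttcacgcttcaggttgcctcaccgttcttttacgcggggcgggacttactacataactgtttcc
Cox6a1: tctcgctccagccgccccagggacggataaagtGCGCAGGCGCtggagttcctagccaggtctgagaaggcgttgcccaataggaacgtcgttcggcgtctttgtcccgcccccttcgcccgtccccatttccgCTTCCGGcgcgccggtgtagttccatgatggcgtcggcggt
Atp5o: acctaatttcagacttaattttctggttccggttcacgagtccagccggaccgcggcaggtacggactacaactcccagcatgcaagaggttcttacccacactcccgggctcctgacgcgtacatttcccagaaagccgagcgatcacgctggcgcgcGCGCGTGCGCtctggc
Atp5h: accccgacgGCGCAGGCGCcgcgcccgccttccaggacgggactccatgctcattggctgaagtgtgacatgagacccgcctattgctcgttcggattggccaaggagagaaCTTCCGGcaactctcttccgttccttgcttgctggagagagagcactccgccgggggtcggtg
Ndufa11: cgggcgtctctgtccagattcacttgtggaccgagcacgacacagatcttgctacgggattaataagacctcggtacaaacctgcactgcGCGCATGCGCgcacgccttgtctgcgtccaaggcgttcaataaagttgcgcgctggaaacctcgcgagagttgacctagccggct
Cox7a2l: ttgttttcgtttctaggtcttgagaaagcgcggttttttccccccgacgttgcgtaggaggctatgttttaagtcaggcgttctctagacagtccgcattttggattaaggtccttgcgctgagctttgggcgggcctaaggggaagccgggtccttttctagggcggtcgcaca
Of these 6, Sdhd, Cox6a1 and Atp5h hold an NRF1 and an ETS match, Atp5o and Ndufa11 an NRF1 match, and the Cox7a2l stretch holds no match to the 4 motifs. Genes that passed in a knockout could lack one too. The same stretches of Atp5b, Ndufv1, Cox5a, Uqcr10, Cox7b and Ndufv2, not shown, hold no match either.

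Cox7a2l had the opposite sign to most subunit genes in both knockouts and was the 1 gene that rose with rapamycin. It encodes a relative of Cox7a2 that is known for joining complexes III and IV into supercomplexes. Cox7a2l had 1367, 1266 and 1291 in Raptor KO libraries, all above the 1003, 1028 and 1029.7 in Raptor fl/fl libraries (log2 fold change 0.36, limma adjusted p = 0.102, not past the test). It had 716, 630 and 649 in Tsc2 KO and 903, 678 and 910.4 in Tsc2 fl/fl, with overlap (-0.31, limma adjusted p = 0.102). After the length correction it passed as lower in Tsc2 KO (-0.39, limma adjusted p = 0.0155), where 8.73% of all genes tested did. The difference between both effects was 0.67 (SE 0.17, limma adjusted p = 0.0173), opposite in sign to that of 75 of the 80 genes. Its close relative Cox7a2 had a difference of -0.83 (limma adjusted p = 0.0206). In Hoxb8 cells Cox7a2l had 1826 and 1729 with rapamycin, 1079 and 1192 with SL0101 and 920.5 and 950.3 with DMSO. With rapamycin it rose by 0.93 against DMSO (SE 0.14, limma adjusted p = 6.33e-05) and by 0.65 against SL0101 (limma adjusted p = 0.005). With SL0101 it was 0.28 against DMSO (limma adjusted p = 0.215) and did not pass. The 3 Hoxb8 groups did not overlap.

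**Figure D4:**
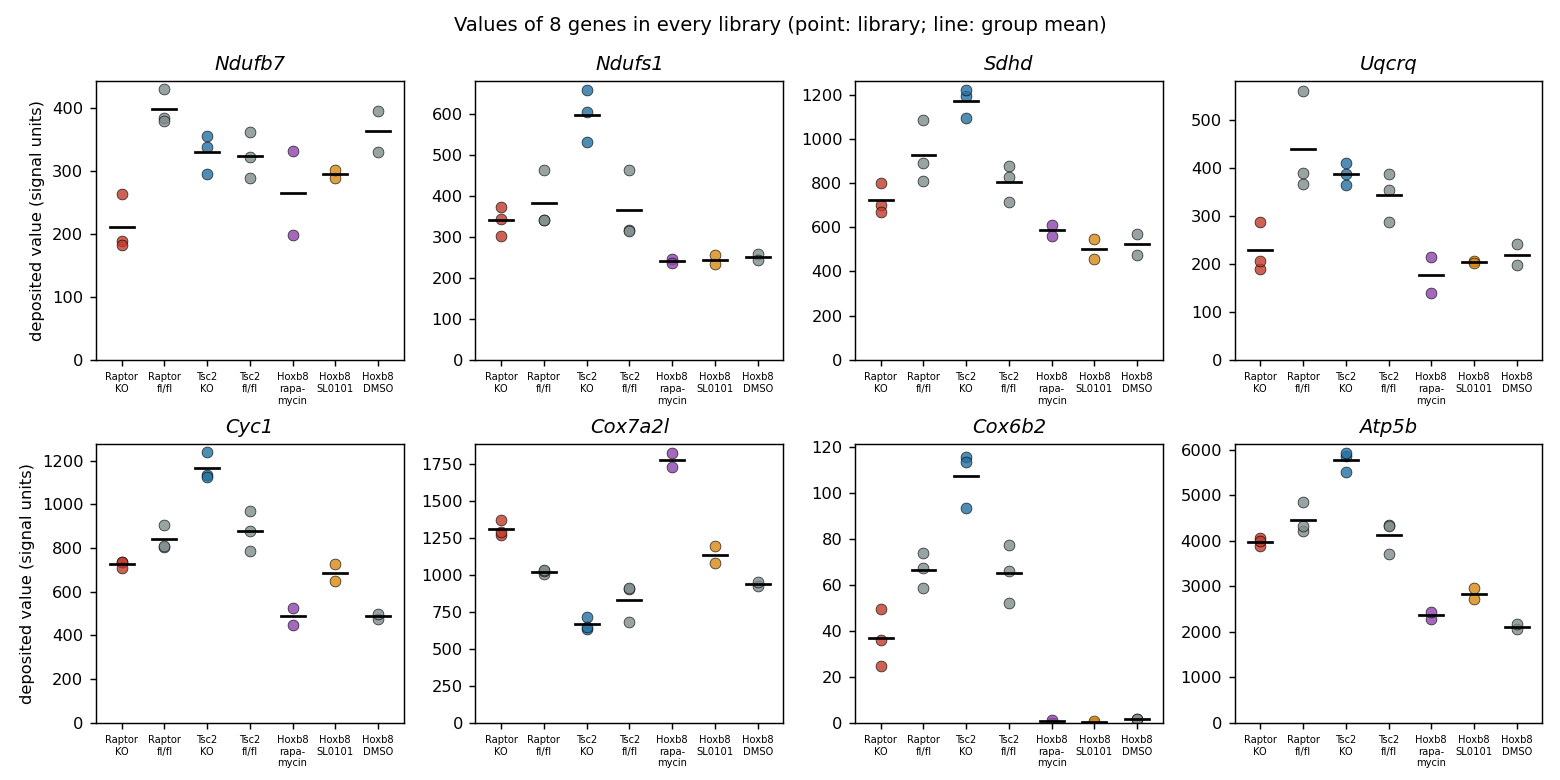
Deposited value (signal units, axes from 0) of 8 genes in every library, with 1 point per library and a line at the group mean. Cox7a2l is highest with rapamycin (1729 and 1826), Cox6b2 is at or below 1.66 in Hoxb8 cells, and Atp5b is highest in Tsc2 KO.

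Few other subunit genes passed with rapamycin. Of 79 genes tested 1 passed as higher, Cox7a2l, and 5 as lower, where 5.4% and 6.35% of all 11804 genes tested passed in these directions. The median log2 fold change was -0.07, beside -0.01 over all genes. Both rapamycin libraries lay above both DMSO libraries for 10 of the 79 genes and below them for 15, where 25.3% and 27.0% of all genes tested did. Sdhb, the iron-sulfur subunit of complex II, had 423 and 474 with rapamycin and 615 and 752 with DMSO (log2 fold change -0.60, SE 0.15, limma adjusted p = 0.0092). Ndufb6 had 80.7 and 90.7 with rapamycin and 139 and 146 with DMSO (-0.73, limma adjusted p = 0.0178). Neither gene overlapped between the groups. Uqcr10 of complex III fell by 0.68 and Ndufa5 of complex I by 0.80. Ndufs5 also passed, at uncertain values of 6.33 and 0.00199 with rapamycin, against 19.8 and 12.4 with DMSO. The rapamycin libraries differed from each other: the subunit genes deviated from the Hoxb8 mean by a median of -0.24 in replicate 1 and 0.16 in replicate 2, and other transcripts under 1000 bases by -0.15 and 0.21. Without rapamycin replicate 1 the median log2 fold change was 0.11, and without rapamycin replicate 2 it was -0.29. Without DMSO replicate 1 or 2 it was -0.15 or -0.013.

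With SL0101, 3 of 79 genes rose and none fell, where 5.09% and 5.79% of all genes tested did, and the median was -0.05. An unadjusted limma p under 0.05, in either direction, was reached by 9 of the 79. The share of all genes at that p is not given here, but 10.9% of them passed the stricter adjusted threshold. The 9 are therefore no sign of a change in the subunit genes as a set. Both SL0101 libraries lay above both DMSO libraries for 17 of the 79 genes and below them for 27, where 26.6% and 28.2% of all genes tested did. Cyc1 had 724 and 650.1 with SL0101 and 476 and 499 with DMSO (log2 fold change 0.49, SE 0.15, limma adjusted p = 0.0341). Atp5b had 2956 and 2707 with SL0101 and 2059.8 and 2159 with DMSO (0.42, limma adjusted p = 0.0413). Uqcrfs1, the Rieske iron-sulfur protein of complex III, had 794 and 746 with SL0101 and 557 and 582 with DMSO (0.43, limma adjusted p = 0.0488). In all 3 the groups did not overlap, and none passed when any 1 of the 4 libraries was left out.

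Set against SL0101 directly, at unequal doses, rapamycin gave 2 genes higher and 3 lower of 79, where 4.43% and 4.44% of all genes tested passed. Its libraries lay above both SL0101 libraries for 13 genes and below them for 21, where 26.1% and 25.1% of all genes tested did. Besides Cox7a2l, the higher gene was Uqcrh, the hinge protein of complex III, with 312 and 509.5 with rapamycin and 175 and 193 with SL0101 (log2 fold change 1.11, SE 0.20, limma adjusted p = 0.0016). Uqcrh had 243 and 319 with DMSO, between both drugs on average. Sdha had 805 and 658 with rapamycin and 1013 and 1060.1 with SL0101 (-0.51, limma adjusted p = 0.0298), and Cyc1 was lower by 0.50 in rapamycin (limma adjusted p = 0.0378). The fifth gene, Ndufs5, is uncertain as above. The median log2 fold change of -0.044 became 0.18, -0.28, -0.093 and -0.022 without rapamycin replicate 1, rapamycin replicate 2, SL0101 replicate 1 and SL0101 replicate 2. Both inhibitor comparisons with DMSO share the same 2 DMSO libraries. Granule and progenitor genes differed between these cells as well: 6 of 9 progenitor markers rose with rapamycin and 5 with SL0101, with sums of 56969 to 58212 with rapamycin, 24781 to 31666 with SL0101 and 11493 to 12363 with DMSO. Late neutrophil marker sums were 65221 to 100238 with rapamycin, 57474 to 86194 with SL0101 and 118970 to 163769 with DMSO. Their part in the subunit values was not tested.

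**Figure D5:**
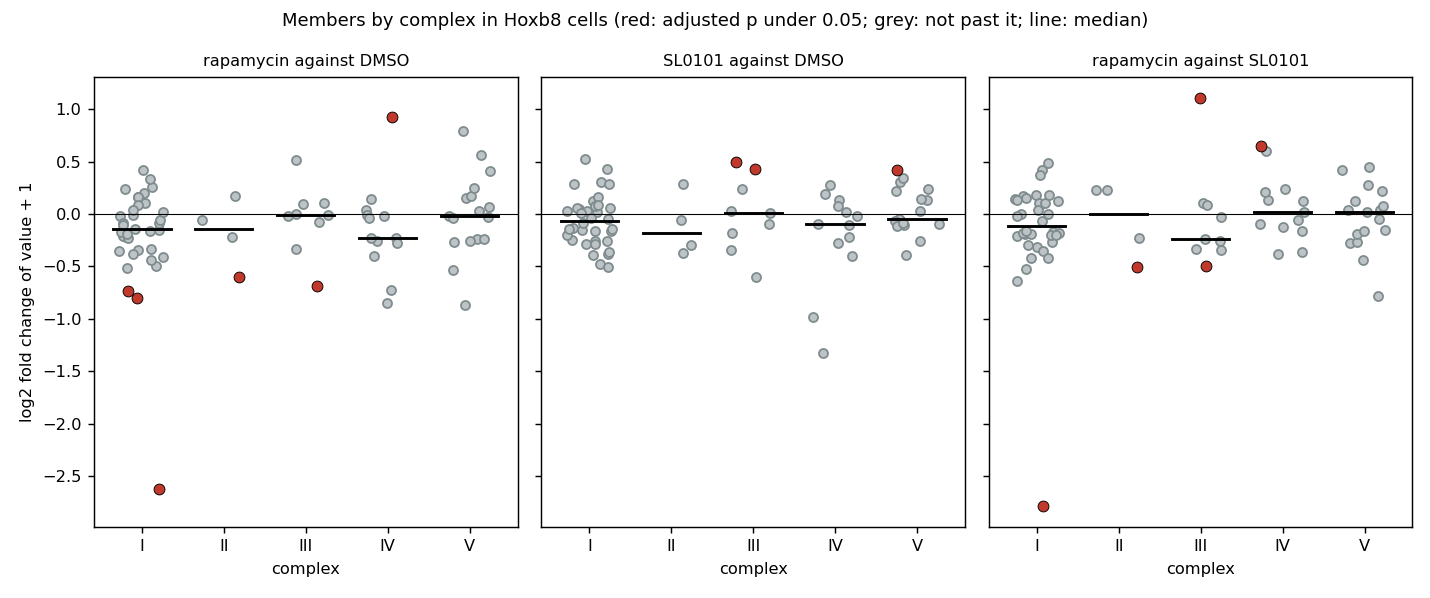
Log2 fold change of the value plus 1 for each subunit gene by complex in 3 Hoxb8 comparisons, with genes past the test in red and a line at the median of each complex. The medians of complexes I to V lie between -0.24 and 0.02, and the lowest red point in the left and right panels is the uncertain Ndufs5.

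Setting Hoxb8 cells in DMSO beside the Raptor fl/fl and Tsc2 fl/fl progenitors gives levels in 2 systems. They differ in source, culture and sort, which cannot be told apart. Y-linked transcripts differed too, with sums of 524 and 557 in Hoxb8 DMSO libraries. In the controls these sums were 385 in Tsc2 fl/fl replicate 2 and at most 0.778 in the others. Of 81 genes tested 2 were higher and 54 lower in Hoxb8 cells, where 21.6% and 28.1% of all 14397 genes tested passed, and the median was -0.60 beside -0.15 over all genes. For 51 of the 81 genes both Hoxb8 DMSO libraries lay below all 6 controls, where 27.3% of all genes tested did. By complex the genes lower in Hoxb8 cells were 22 of 36 in complex I, 3 of 4 in II, 8 of 9 in III, 8 of 15 in IV and 13 of 17 in V. Length moved with this result too: other genes had a median of -0.52 under 1000 bases and 0.18 at 4000 bases or more. After the length correction 30 of the 54 remained lower, 20 passed as higher and the median was -0.069, where 29.4% and 22.9% of all genes tested passed as lower and higher.

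Among the 30 were Atp5g1 and Ndufa12. Atp5g1, a c ring gene, had 225 and 287 in Hoxb8 DMSO libraries, against 1209, 886 and 895 in Raptor fl/fl and 718, 926 and 1113 in Tsc2 fl/fl libraries (log2 fold change -1.89, corrected for length -1.24). Atp5g2, which encodes the same mature protein, had 439 and 537 in Hoxb8 DMSO, against 1062, 816 and 857 and 779, 665 and 818 in the same controls (-0.76, corrected 0.03). Ndufa12, an accessory subunit of complex I, had 88.5 and 106 in Hoxb8 DMSO, against 356, 264 and 292 in Raptor fl/fl and 337, 294 and 291 in Tsc2 fl/fl (-1.64, corrected -1.29). Both Hoxb8 DMSO libraries lay below all 6 controls for Atp5g1, Atp5g2 and Ndufa12. Cox6b2, an isoform known from testis, had 1.58 and 1.66 in Hoxb8 DMSO, 67.1, 58.4 and 73.8 in Raptor fl/fl and 52, 66 and 77.1 in Tsc2 fl/fl. That is 4 fragments in the Hoxb8 DMSO libraries and 479 in the controls, a level 40.5 times higher in the controls (95% exact binomial interval 15.7 to 149, counting error only). Its partner isoform Cox6b1 was lower by 0.83 in Hoxb8 DMSO (limma adjusted p = 0.000446), and after the length correction the value was -0.20 and did not pass (limma adjusted p = 0.116). In the knockouts Cox6b2 had 49.5, 24.5 and 35.7 in Raptor KO and 93.5, 116 and 113 in Tsc2 KO, and the difference of -1.62 between both effects passed (limma adjusted p = 0.00992).

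The genes higher in Hoxb8 cells with and without the correction were Ndufv3 and Cox7a1. Ndufv3, a small subunit of the NADH-binding module, had 299 and 325 in Hoxb8 DMSO, against 217, 183 and 166 in Raptor fl/fl and 191, 124 and 183 in Tsc2 fl/fl (log2 fold change 0.83, limma adjusted p = 0.000572). Cox7a1, an isoform known from muscle, had 3.95 and 5.81 in Hoxb8 DMSO and at most 1.56 in any control library. All 8 late neutrophil markers were higher in Hoxb8 DMSO and 11 of 12 erythroid and all 10 B lymphoid markers lower, with Pax5, Hba-a1 and Hbb-b1 among those at 0 there, and their part in these values was not tested.

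Genes around the chain were read, without the length correction, from 7 lists, chosen with earlier results of these data known. Their counts stand beside 5.26% of all genes tested higher and 7.12% lower in Tsc2 KO, and 1.53% higher and 2.42% lower in Raptor KO. In Tsc2 KO, 6 of 17 genes of the citric acid cycle and pyruvate dehydrogenase rose and none fell, and in Raptor KO none of the 17 passed. Idh3a, a catalytic subunit of isocitrate dehydrogenase, had 1215 ± 158 in Tsc2 KO and 671 ± 54.4 in Tsc2 fl/fl (SD, n = 3 each), a rise of 0.85 on the log2 scale (limma adjusted p = 0.000625), and citrate synthase Cs rose by 0.59. Of 18 genes of inner membrane carriers and scaffold, 5 rose in Tsc2 KO, among them Phb2, a prohibitin, by 0.47 and Immt, a cristae organizer, by 0.49. In Raptor KO 3 of the 18 fell: the ATP/ADP carrier Slc25a5 by 0.56, the ATPase inhibitor Atpif1 by 0.65 and the channel Vdac3 by 0.45. Among 17 genes of electron carriers and coenzyme Q synthesis, Etfa and Etfb, subunits of the electron transfer flavoprotein, fell in Raptor KO, and Etfb and Coq2 fell in Tsc2 KO. Of 43 assembly factors tested, Uqcc2 and Atpaf2 fell in Raptor KO (-1.06 and -0.69), and in Tsc2 KO the copper chaperone Cox17 rose by 0.77 while Cmc1 fell. None of the 12 regulators of mitochondrial biogenesis and none of the 22 import genes passed in either knockout.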

How the data were processed

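RNA of 18 samples was profiled by SmartSeq2 low-input RNA sequencing, per the labels' protocols. BWA, TopHat2 2.0.10, Cufflinks 2.2.1 and Cuffnorm are named in the submitters' processing notes, while no source used here names the genome build. The deposited table holds a signal per gene, the fragments counted by the authors divided by a size factor per library; 99.0% to 99.1% of values in progenitors and 98.9% to 99.0% in Hoxb8 cells were whole multiples of the value of 1 fragment within 0.01 fragments, which gave the depths above. No source used here states that counting used strand, so overlapping genes cannot be told apart from antisense partners, and near-identical copies may share fragments. Precision is set by depth and by 2 or 3 libraries a group.

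Genes at 1 or more in at least 3 progenitor or 2 Hoxb8 libraries were tested with limma 3.58.1 (R 4.3.3). The fit used log2 of the value plus 1, with expression trend and robust variance, over all groups of a cell system. Hoxb8 DMSO against control progenitors was instead fitted over all 18 libraries. P-values were adjusted over all genes tested (Benjamini-Hochberg) in each of 7 comparisons. The fit was tested on simulated data. A result of 1 gene is not reported here. Transcript lengths came from GENCODE M21. The members and lists were chosen with earlier results of these data known. Genes named were those past the test, up to 5 with the smallest p per complex, up to 4 per pathway list, and isoform pairs and genes of core subunits chosen after values were seen. Alternatives were another pseudocount, no filter, quantile normalization, no expression trend, only the groups compared, a replicate block, voom weights, each library left out, and, chosen after the data were seen, a common total and the length correction. The main fit did not pair libraries by replicate number. The correlation of deviations between same-numbered libraries was 0.03, 0.05 and 0.01 for Raptor and 0.22, 0.26 and -0.02 for Tsc2. Median deviations of the subunit genes ranked replicate 1, then 3, then 2 in both Raptor groups and in Tsc2 KO. In Tsc2 fl/fl the order was 3, then 1, then 2. Replicate 2 of Tsc2 KO and replicate 2 of Tsc2 fl/fl were also the progenitor libraries with high Y-linked sums, as given above. Whether same-numbered libraries belong together is not given in the labels and was not tested beyond these values.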

Additional observations from a re-analysis of the deposited data

Results flagged for a closer look

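For 39 genes the effect of the Raptor knockout on log2 expression differed from that of the Tsc2 knockout in a limma test of the difference itself (Benjamini-Hochberg adjusted over all genes tested). The values below, for those reported here, are the Raptor effect minus the Tsc2 effect in log2 units.

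In complex I the differences were Ndufa1 -1.01, Ndufa11 -1.08, Ndufa5 -0.845, Ndufa9 -0.609, Ndufb10 -0.831, Ndufb2 -0.888, Ndufb4 -1.05, Ndufb5 -0.67, Ndufb6 -1.01, Ndufb7 -0.956, Ndufb8 -0.87, Ndufb9 -1.06, Ndufs1 -0.888, Ndufs6 -1.09, Ndufv1 -0.808 and Ndufv2 -0.839. In complex II the difference was Sdhd -0.895. In complex III the differences were Cyc1 -0.621, Uqcr10 -0.872 and Uqcrq -1.12. In complex IV they were Cox4i1 -0.573, Cox5a -0.767, Cox5b -0.864, Cox6a1 -1.02, Cox6b1 -0.772, Cox6b2 -1.62, Cox6c -0.789, Cox7a2 -0.83 and Cox7b -0.829, and in complex V Atp5b -0.649, Atp5f1 -0.526, Atp5g3 -0.912, Atp5h -0.81, Atp5j2 -0.82, Atp5k -1.25 and Atp5o -0.898. A negative value is a change in Raptor KO below that in Tsc2 KO, each against its own controls. The 2 positive values belonged to Atp5sl, at 1.1, and Cox7a2l, at 0.667. Ndufb9 and Cox6b2 passed in all 22 alternative settings tried for this comparison.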

How the results depend on the processing

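For the named genes, 4272 results kept their direction and their side of the threshold under the alternatives, 65 newly passed, 630 no longer passed and 83 changed sign. In 76 of the 83 the gene passed neither before nor under the alternative. The other 7 were in Hoxb8 DMSO against control progenitors with the length correction: Sdhb 0.30, Atp5j 0.47, Cox4i1 0.46, Cox6a1 0.42, Cox7a2 0.40, Cox8a 0.090 and Atp5g2 0.033. Sign also changed with the length correction for Sdhb (0.0050), Cox8a (0.065) and Atp5g2 (0.068) in Raptor KO, Uqcrb (-0.071) and Atp5g2 (-0.042) in Tsc2 KO, Cox8a (0.0036) and Atp5g2 (0.11) in the interaction, Sdhc (0.024) for rapamycin and Cox6a1 (0.015) and Tsc2 (0.050) for SL0101 against DMSO, and Cox6b1 (-0.040) for rapamycin against SL0101. With a common total it changed for Sdha (-0.0054) in Raptor KO, Uqcrb (-0.017) in Tsc2 KO, Cox6a1 (0.0068) for SL0101 against DMSO, Cox6b1 (-0.041) and Atp5g3 (-0.018) for rapamycin against SL0101, and Cox7a2l (-0.088) for Hoxb8 DMSO against control progenitors. With quantile normalization it changed for Uqcrb (-0.10) and Atp5g2 (-0.070) in Tsc2 KO, Ndufs5 (-0.15) and Sdha (0.0069) in the interaction, Cox8a (0.048) and Atp5g3 (0.062) for rapamycin against DMSO, and Cox7a2l (-0.19) for Hoxb8 DMSO against control progenitors. It changed for Uqcrb (-0.085) in Tsc2 KO without replicate 2 of both groups and for Cox6b1 (-0.0010) for rapamycin against SL0101 with voom weights.

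Leaving out 1 library each gave values of both signs for these genes. In Raptor KO they spanned -0.56 to 0.87 for Ndufs5 and -0.034 to 0.066 for Sdha, and in the interaction -0.52 to 0.91 for Ndufs5. In Tsc2 KO they spanned -0.11 to 0.11 for Uqcrb, -0.056 to 0.093 for Atp5g2, -0.24 to 0.10 for Rptor, -1.005 to 0.41 for Cox4i2 and -0.31 to 0.078 for Ndufa4. For rapamycin against DMSO they spanned -0.58 to 0.071 for Cox6b1, -0.54 to 0.10 for Cox7a2, -0.32 to 0.28 for Cox8a, -0.21 to 0.16 for Atp5g3, -0.55 to 0.26 for Ndufa4, -0.21 to 0.091 for Sdhc and -0.014 to 0.30 for Cox4i1. For SL0101 against DMSO they spanned -0.19 to 0.073 for Sdhd, -0.11 to 0.18 for Atp5g2, -0.11 to 0.077 for Cox6a1, -0.039 to 0.31 for Atp5g1, -0.21 to 0.013 for Cox4i1 and -0.21 to 0.083 for Atp5g3. For rapamycin against SL0101 they spanned -0.44 to 0.20 for Cox7a2, -0.39 to 0.21 for Cox8a, -0.31 to 0.34 for Cox6b1, -0.41 to 0.68 for Cox6b2, -0.14 to 0.22 for Atp5g3, -0.26 to 0.55 for Ndufa4 and -0.61 to 1.81 for Cox7a1. For Hoxb8 DMSO against control progenitors they spanned -0.18 to 0.11 for Sdhb, -0.085 to 0.050 for Atp5j, -0.040 to 0.066 for Cox7a2l and -0.20 to 0.027 for Cox4i1.

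The count of genes passing in Raptor KO was 11 without a filter, 1 without the expression trend, 31 with only the groups compared and 6 with the length correction, where the median was -0.16. Of all genes tested 2.76, 1.42, 10.0 and 4.02% passed in these settings in either direction, beside 3.94% in the main fit. In Tsc2 KO the count was 1 without the trend, 4 with only the groups compared and 4 without replicate 2 of both groups, and the median was 0.10 with quantile normalization. Those 3 counts stand beside 6.25, 3.89 and 9.78% of all genes tested. The interaction gave 23 genes with quantile normalization, 2 without the trend, 22 without replicate 2 of both Tsc2 groups and 20 with the length correction (median -0.37). Of all genes tested 10.7, 4.53, 10.8 and 12.8% passed there. Rapamycin against DMSO gave 0 of 79 without the trend and 11 of 79 with the length correction, beside 1.45% and 13.7% of all genes tested. SL0101 against DMSO gave 0 without the trend, beside 0.737%. Rapamycin against SL0101 gave 0 without the trend, beside 0%, and 2 of 78 with only the groups compared, beside 4.77%. Hoxb8 DMSO against control progenitors had a median of -0.78 with quantile normalization and -0.069 with the length correction. The cause of these changes was not tested. Leaving out 1 library each gave 1 to 32 genes in Raptor KO (median -0.58 to -0.30), 2 to 10 in Tsc2 KO (0.14 to 0.26), 17 to 49 in the interaction (-0.80 to -0.55), 1 to 21 for rapamycin against DMSO (-0.29 to 0.11), 0 for SL0101 against DMSO (-0.14 to 0.043), 1 to 9 for rapamycin against SL0101 (-0.28 to 0.18) and 40 to 58 for Hoxb8 DMSO against control progenitors (-0.69 to -0.55). Where this left a Hoxb8 group with 1 library, that library was assumed to vary like the other groups.

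Replicate numbers are shared by the titles of all groups, and the main fit did not use them to pair the libraries. With the replicate number as a block, 28 of 80 genes passed in Raptor KO, 10 of 80 in Tsc2 KO and 44 of 80 in the interaction. Of all genes tested 5.33, 14.2 and 14.0% passed there in either direction. For rapamycin against DMSO 12 of 79 passed, beside 15.7% of all genes, and for SL0101 against DMSO 6 of 79, beside 15.5%. Rapamycin against SL0101 gave 7 of 79, beside 14.3%, and Hoxb8 DMSO against control progenitors 52 of 81, beside 48.5%. The planned count test was not run, since the values were not accepted as whole fragments for nearly all genes (98.9% to 99.1% were within 0.01 fragments). The voom weights and the fragment numbers of Cox6b2 used the values divided by that of 1 fragment, rounded. In simulated libraries of the Raptor comparison, 14% of genes changed by 1.5-fold and 70.5% of those changed 2-fold passed. Changes of 1.5-fold thus mostly did not pass there. Some subunit genes did pass in Raptor KO at smaller changes, such as Atp5o at a log2 fold change of -0.48.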

Other observations

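In Hoxb8 cells some genes of mitochondrial protein import rose with each inhibitor. Of 22 tested, 5 rose with rapamycin and 6 with SL0101 against the same DMSO libraries and none fell, where 5.4% and 5.09% of all genes tested rose. Tomm40, the channel of the outer membrane, had 286 ± 6.92 with rapamycin, 418 ± 1.87 with SL0101 and 198 ± 19.4 with DMSO (SD, n = 2 each), with log2 fold changes of 0.53 and 1.08 against DMSO (limma adjusted p = 0.029 and 9.81e-05). Pprc1, a coactivator of the PGC-1 family, was the 1 of 11 regulators tested that passed against DMSO, by 1.21 with rapamycin and 1.40 with SL0101 (limma adjusted p = 0.00155 and 0.00057). Idh3a of the citric acid cycle, which also rose in Tsc2 KO, rose by 0.61 with rapamycin and 1.01 with SL0101 (limma adjusted p = 0.0176 and 0.000374). Set directly against SL0101, rapamycin had 4 of 22 import genes and 2 of 11 regulators, Gabpa and Gabpb1, lower, where 4.44% of all genes tested were.

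In Hoxb8 DMSO cells, set against control progenitors, 17 of 18 genes of inner membrane carriers and scaffold and 17 of 22 import genes were lower. So were 13 of 17 citric acid cycle genes, 12 of 17 electron carrier and coenzyme Q genes, 22 of 43 assembly factors and 5 of 12 regulators. Of all genes tested 28.1% were lower. These counts carry no length correction. Other genes in this comparison had a median of -0.52 under 1000 bases and 0.18 at 4000 bases or more.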
